A study of Mus musculus with 2 samples.

Results

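Mir341, Mir1188 and Mir370 are the named microRNA loci of the Rian part of the imprinted Dlk1-Dio3 region on mouse chromosome 12, between the microRNAs antisense to Rtl1 and the Mirg cluster. They were taken as the rows whose Ensembl identifiers carry these names in the GENCODE M21 annotation, and all 3 were found among the 2202 microRNA loci counted. Small RNA (under 30 nt) was sequenced from left cerebral cortex tissue of female B6CASTF1/J mice, hybrids of C57BL/6J with a CAST strain, at 14 days of age. The study has 1 group of 2 biological replicates, with no treatment, engineered allele or control. The label of replicate 2 names a single female and that of replicate 1 several females, both carry the same donor record, and pooling is not stated. Spread therefore means the spread between these libraries, part of which may be technical.

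The Dlk1-Dio3 region expresses coding genes from the paternal chromosome and a chain of long non-coding RNAs, Meg3, Rian and Mirg, from the maternal one. Rian is a long non-coding transcript, abundant in brain, whose introns carry tandem C/D box small nucleolar RNAs and microRNAs. A microRNA hairpin is cut to a short mature strand, which recognises target RNAs mainly through its seed, bases 2 to 8. By the naming convention of mouse hybrids the mother comes from the strain named first, here C57BL/6J, the strain of the reference genome. The counts do not separate the parental alleles.

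The mature sequences are shown because each locus is counted through them and because their seeds set the loci apart. They are RefSeq's for GRCm38.p6, the assembly also called mm10, read 5′ to 3′ on the plus strand, with the seed in capitals.
mmu-miR-341-5p: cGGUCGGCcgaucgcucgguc
mmu-miR-341-3p: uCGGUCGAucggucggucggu
mmu-miR-1188-5p: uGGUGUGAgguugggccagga
mmu-miR-1188-3p: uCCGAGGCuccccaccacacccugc
mmu-miR-370-5p: cAGGUCACgucucugcaguu
mmu-miR-370-3p: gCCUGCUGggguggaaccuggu

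No seed was shared among these 6 mature strands. Of all mouse mature microRNAs in the same table, 1 shares a seed with any of them. This is miR-1193-3p, whose locus Mir1193 lies in the Mirg group of the same region, and which shares its seed with miR-370-5p (shown with the seed in capitals).
mmu-miR-1193-3p: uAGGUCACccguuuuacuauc
Mir1193 (chr12:109715671-109715791, plus strand) had 334 reads in replicate 2 and 214 in replicate 1, against 24760 and 4429 reads of Mir370. The deposited counts are per locus and join both arms, so they do not show which arm of Mir370 was read.

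The hairpins show how different the 3 loci are in sequence, with both mature arms in capitals.
Mir341: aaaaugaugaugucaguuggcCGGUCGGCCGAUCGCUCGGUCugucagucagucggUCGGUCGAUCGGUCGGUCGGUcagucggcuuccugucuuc
Mir1188: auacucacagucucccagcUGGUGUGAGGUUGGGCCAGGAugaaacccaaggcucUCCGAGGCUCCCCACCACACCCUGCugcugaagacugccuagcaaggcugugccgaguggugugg
Mir370: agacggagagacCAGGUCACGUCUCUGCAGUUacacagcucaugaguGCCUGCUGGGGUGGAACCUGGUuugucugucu

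Mir341 (ENSMUSG00000070101.1, chr12:109611500-109611595, plus strand) has a repetitive hairpin of 96 nt, in which the letters CGGU occur 7 times on the RNA strand. CGGU was found at least once in 11.9% of the 1005 mouse hairpins in the RefSeq table. It occurred 7 or more times in 1 of them, which is Mir341 itself, the hairpin from which the letters and the count were taken. Mir1188 (ENSMUSG00000080406.1, chr12:109611822-109611941) has a hairpin of 120 nt, and Mir370 (ENSMUSG00000065433.1, chr12:109618258-109618336) one of 79 nt. All 3 hairpins were richer in G and C, at 59.4%, 60.8% and 55.7% for Mir341, Mir1188 and Mir370, than the median mouse hairpin at 51.7%. Their predicted minimum free energies were close, at −42.0, −42.2 and −41.3 kcal/mol, although Mir370 is the shortest.

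The 3 loci lie on the strand of Rian (chr12:109603940-109661716). Each lies within an intron of 2 of its 20 annotated transcripts and overlaps an exon of none, and the other transcripts do not span it. Mir341 begins 7560 nt, Mir1188 7882 nt and Mir370 14318 nt after the annotated start of Rian. Mir341 and Mir1188 are 226 nt apart, whereas 6316 nt separate Mir1188 from Mir370. The 13 annotated small nucleolar RNA genes of Rian all lie downstream of Mir370.

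**Figure D1:**
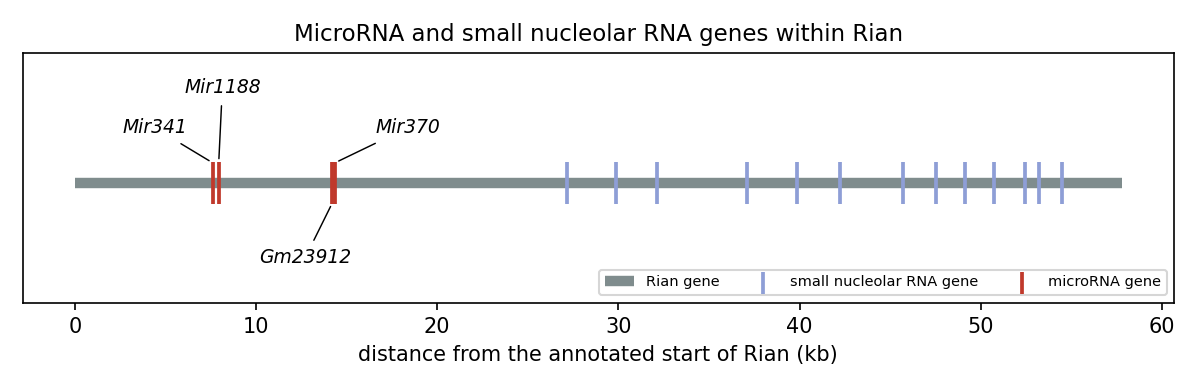
MicroRNA genes (red) and small nucleolar RNA genes (blue) along the Rian gene (grey bar), with distance from its annotated start in kb on the x axis. Mir341 and Mir1188 stand 226 nt apart, Mir370 and the predicted locus Gm23912 57 nt apart, and the 13 small nucleolar RNA genes lie further downstream.

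Sequence shared with other loci could draw reads away, because reads that mapped to several places enter no locus count. The longest stretch shared with any other annotated microRNA locus was 14 nt for Mir341, 13 nt for Mir1188 and 14 nt for Mir370. No stretch of 18 nt from 5 of the 6 mature strands occurred in a transcript of another gene among 141767 GENCODE transcripts, on either strand. The exception was miR-1188-3p, which shares such a stretch with a transcript of Lonp1, a mitochondrial protease gene. The whole genome was not searched.

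In replicate 2, 3207941 of 9627908 reads (33.3%) fell on the sense strand of a microRNA locus, and in replicate 1 2740332 of 7745369 (35.4%) did so. Levels are these gene-assigned reads scaled to a total of 1000000 per library (CPM), and 389 loci with at least 10 reads in each library are called detected. A small RNA read spans a mature strand, so levels were not divided by length. Intervals cover counting error alone, as no use of molecular identifiers is recorded. Of 11 loci known from neurons, 7 were detected, and the 11 had summed levels of 40662 CPM in replicate 2 and 30865 in replicate 1. The liver microRNA Mir122 had 43.0 and 60.9 CPM in replicates 2 and 1. The 5 muscle loci summed to 35.8 and 31.7 CPM, of which Mir206 gave 31.2 and 28.8 CPM. Mir1a-1, Mir1a-2 and Mir133a-1 had 0 reads. Reads that mapped to several places enter no locus count, so 0 reads at loci numbered as copies of a microRNA do not show its absence. The neuronal list also holds such numbered copies, among them Mir128-1 and Mir128-2, so its sum can miss reads and does not measure neuronal content.

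The levels of the members spanned more than an order of magnitude, and only Mir370 differed strongly between the libraries. Mir341 was read 7788 times in replicate 2 and 6403 times in replicate 1. This is 2428 CPM in replicate 2 (exact Poisson 95% interval 2374 to 2482) and 2337 CPM in replicate 1 (2280 to 2395). The mean was 2382 ± 64.5 CPM (SD, n = 2), which placed Mir341 at rank 66 of all loci in replicate 2 and rank 68 in replicate 1.

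Mir1188, its close neighbour, was the lowest of the 3 in both libraries. It was read 801 times in replicate 2 and 538 times in replicate 1. Its level was 250 CPM in replicate 2 (interval 233 to 268) and 196 CPM in replicate 1 (180 to 214), with a mean of 223 ± 37.7 CPM (SD, n = 2). The ranks were 172 in replicate 2 and 174 in replicate 1.

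Mir370 encodes miR-370, which has been described in human liver cell lines to repress a carnitine palmitoyltransferase of fatty acid oxidation. It reached 7718 CPM in replicate 2 (interval 7623 to 7815) and 1616 CPM in replicate 1 (1569 to 1665). Replicate 2 was thus far above replicate 1, and the SD was nearly as large as the mean, at 4667 ± 4315 CPM (n = 2). Mir370 stood at rank 29 of all loci in replicate 2 and rank 83 in replicate 1.

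**Figure D2:**
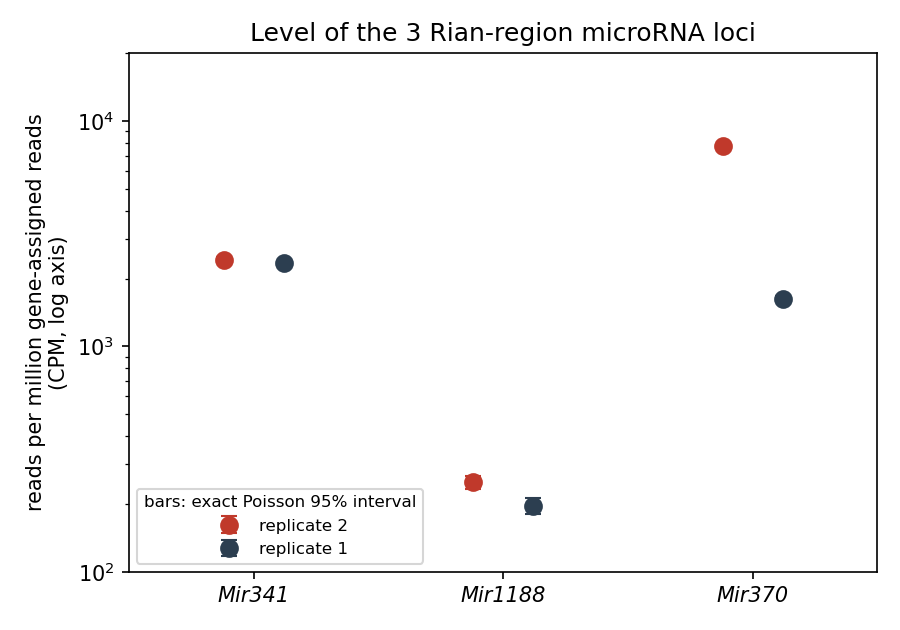
Level of each locus in CPM on a log axis, with replicate 2 (red) left of replicate 1 (dark) and exact Poisson 95% intervals, many of them smaller than the points. In replicates 2 and 1, Mir341 stood at 2428 and 2337 CPM and Mir1188 at 250 and 196 CPM, whereas Mir370 had 7718 and 1616 CPM.

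The order of Mir370 and Mir341 was therefore not resolved. Mir370 had 3.18 reads for each read of Mir341 in replicate 2 (exact binomial 95% interval 3.10 to 3.26) and 0.692 in replicate 1 (0.666 to 0.719). Mir1188 was below both in each library, and the order within each library was the same when levels were divided by hairpin length. Mir341 had 9.72 reads for each read of Mir1188 in replicate 2 (9.04 to 10.5) and 11.9 in replicate 1 (10.9 to 13.0).

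These ratios within a library do not depend on how the libraries are scaled. Over the 3 pairs of members, the Mir341 to Mir1188 ratio differed between the libraries beyond counting error (two-sided Fisher's exact test, adjusted p = 0.000502), by a small margin. The Mir370 to Mir1188 ratio was 30.9 in replicate 2 and 8.23 in replicate 1 (Fisher's exact test, adjusted p = 5.35e-102), and for Mir370 to Mir341 the Fisher's exact adjusted p was below 1e-300. All these tests compare the reads of 1 library with those of another, not conditions.

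In replicate 2 the 3 loci together held 1.04% of gene-assigned reads (exact binomial 95% interval 1.03 to 1.05) and in replicate 1 they held 0.415% (0.407 to 0.423), with a mean of 0.727 ± 0.442% (SD, n = 2). Mir370 made up 74.2% of the members' reads in replicate 2 and 39.0% in replicate 1. Mir341 made up 23.4% in replicate 2 and 56.3% in replicate 1. Without Mir370 the shares were nearly level, with Mir341 and Mir1188 at 0.268% of gene-assigned reads in the second library and 0.253% in the first.

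Within the 59 listed microRNA loci of the Dlk1-Dio3 region, the Rian-region loci were the smallest contributor. They held 4.42% of the region's reads in replicate 2 and 1.86% in replicate 1. The Meg3-proximal group held 16.0% in replicate 2 and 21.1% in replicate 1, the Rtl1-antisense group 40.8% and 39.9%, and the Mirg group 38.8% and 37.2%. The groups differ in size: 3 Rian-region loci stand beside 10 Meg3-proximal, 7 Rtl1-antisense and 39 Mirg loci, and 6 of the 59 had 0 reads in both libraries.

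Per locus, Mir341 and Mir370 lay above the median of the other detected loci of the region in both libraries, and Mir1188 lay below it. The Rian-region loci had a median of 2428 CPM in replicate 2 and 1616 CPM in replicate 1. Over the 48 other detected loci of the region it was 1008 and 875 CPM. Among the 51 detected loci Mir370 ranked 7 in replicate 2 and 16 in replicate 1, Mir341 17 and 13, and Mir1188 36 and 35. The highest loci of the other groups were Mir770 of the Meg3-proximal group at 36617 ± 6635 CPM, Mir127 of the Rtl1-antisense group at 65239 ± 5196 CPM and Mir382 of the Mirg group at 18432 ± 2956 CPM (SD, n = 2 each). Their median loci were Mir665 at 506 ± 111 CPM, Mir431 at 2756 ± 495 CPM and Mir412 at 862 ± 78.4 CPM.

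Levels differed widely between neighbours on the chromosome. The nearest upstream microRNA on the same strand, Mir136 of the Rtl1-antisense group, ends 16111 nt before Mir341 and had 132 CPM in replicate 2 and 122 CPM in replicate 1. The nearest downstream one, Mir882, begins 63860 nt after Mir370 and had 0 reads in both libraries, as did the predicted locus Gm23912, 57 nt before Mir370. A count of 0 allows up to 3 reads, or 0.935 CPM in replicate 2 and 1.09 CPM in replicate 1. The longest stretch that Gm23912 shares with Mir341 is 14 nt (UCGGUCGGUCGGUC) and consists of the same repeated letters. The opposite strand of the 3 members had 0 reads in both libraries, so their counts are the same in the column without regard to strand.

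**Figure D3:**
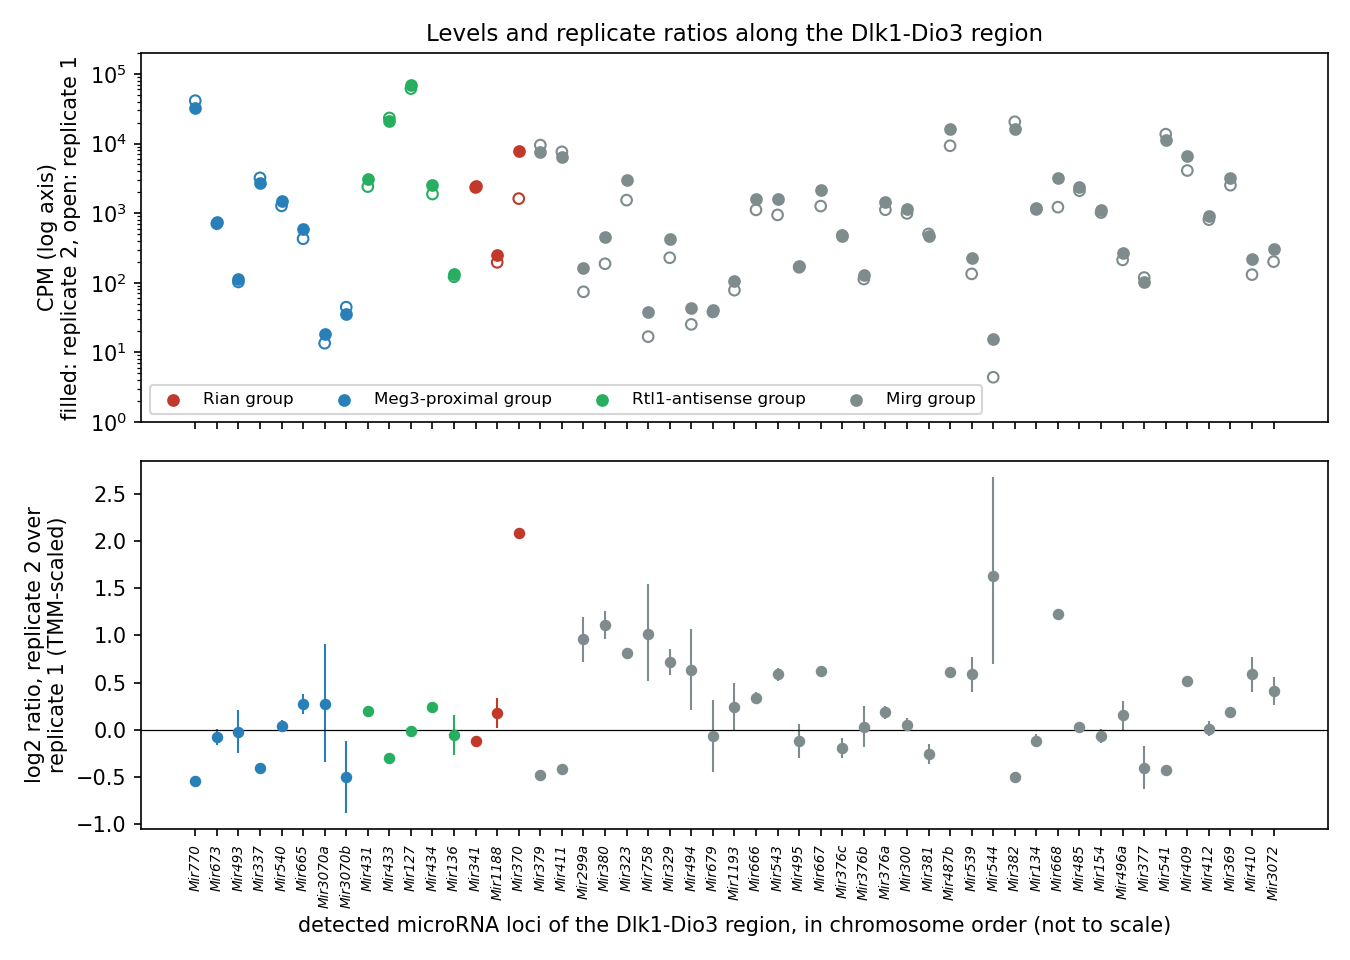
Upper panel, CPM on a log axis of the 51 detected Dlk1-Dio3 loci in chromosome order (filled, replicate 2, and open, replicate 1). Lower panel, log2 ratio of replicate 2 over replicate 1 after TMM scaling with exact binomial 95% intervals; Mir370, at 2.08, stands above all other loci of the region, and Mir341 and Mir1188 lie near 0.

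For a comparison over all loci, library sizes were corrected with the TMM method (trimmed mean of M values). The reads of each detected locus were then compared by an exact, two-sided binomial test, with p-values adjusted after Benjamini and Hochberg across the 389 loci. Mir370 was higher in replicate 2 by 2.08 on the log2 scale (95% interval 2.04 to 2.13, standard error from counting 0.02), a 4.24-fold difference with an adjusted p below 1e-300 by this exact test. Mir341 was lower in replicate 2 by a small margin, with a log2 ratio of −0.12 (−0.17 to −0.07, adjusted p = 3.99e-06, exact test). Mir1188 had a log2 ratio of 0.17 (0.01 to 0.33) and did not pass the test (adjusted p = 0.0530, exact test).

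So 2 of 3 members passed, where 58.4% of all detected loci did: 28.8% higher and 29.6% lower in replicate 2. At this depth the test detects small differences, and passing it sets no locus apart. The members' median log2 ratio was 0.17, against −0.0098 over all detected loci. Scaled by library totals alone, the median over all loci moves to 0.16 and the split from 112 higher and 115 lower to 159 higher and 77 lower. Mir341 then changes direction, to 0.055 (adjusted p = 0.0396, exact test), and Mir1188 reaches 0.35 (adjusted p = 3.28e-05, exact test).

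The size of the Mir370 difference was uncommon. Loci that passed the test and were at least 2-fold higher in replicate 2 made up 6.43% of those detected, and those at least 2-fold lower 4.88%. Mir370 had the third highest ratio of all 389, and 8 loci including Mir370 lay at least as far from 0. Among the 79 loci with a mean between 1000 and 10000 CPM, the log2 ratio had an SD of 0.67 and the median absolute ratio was 0.28. Of these, 3 reached the size of the Mir370 ratio: Mir370 itself, Mir107 and the oligodendrocyte locus Mir219a-2, the others in the opposite direction. Mir341, by contrast, was closer to 0 than most, at place 321 of 389 by absolute ratio, and Mir1188 was at place 293.

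**Figure D4:**
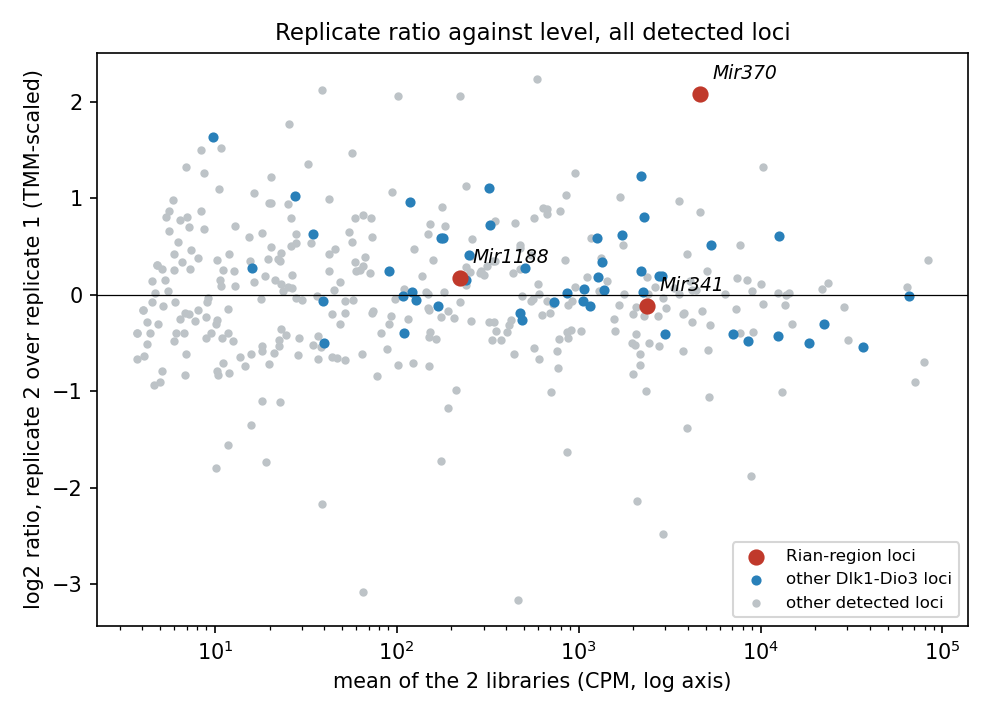
Log2 ratio of replicate 2 over replicate 1 (TMM-scaled) against mean CPM on a log axis for all 389 detected loci, with the Rian-region loci in red and the other Dlk1-Dio3 loci in blue. Mir370 lies at 2.08 near 4667 CPM, with no locus of like level as high, and Mir341 and Mir1188 lie inside the main band.

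Within the Dlk1-Dio3 region Mir370 had the largest ratio of 51 detected loci. The next were Mir544 at 1.63, with few reads, and Mir668 at 1.23, both in the Mirg group. The Meg3-proximal and Rtl1-antisense loci stayed between −0.54 and 0.28. Over the 48 other detected loci of the region the median was 0.11, with 21 higher and 12 lower past the test, where 28.8% of all detected loci were higher and 29.6% lower. This count depends on the processing: with the members included it was 22 higher and 13 lower (median 0.16), but 33 and 7 (median 0.33) with library totals alone. In the column without regard to strand it was 17 and 13 (median 0.05). Fewer loci (365) were tested in that column, where some of the region, such as Mir409 (0.52) and Mir337 (−0.41), had 0 reads. The flanking detected loci showed no such shift as Mir370. Mir136 had −0.06 (adjusted p = 0.676, exact test). Mir379, the first detected locus downstream, was lower in replicate 2, at −0.48 (adjusted p below 1e-300, exact test).

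The summed levels of the marker lists also differed between the libraries, in most lists mainly through 1 locus. Some of the lists hold only 1 or 2 loci, so this follows in part from their size. The neuronal locus Mir128-1 had 15159 CPM in replicate 2 and 5376 in replicate 1. Without it the neuronal sum was level at 25503 and 25489 CPM. Single loci within that sum still differed. Mir128-2 had 4923 CPM in replicate 2 and 2224 in replicate 1, offset by a lower sum of the rest in replicate 2. Oligodendrocyte loci (3 of 3 detected) had summed levels of 1477 CPM in replicate 2 and 4275 in replicate 1, and 624 and 936 CPM without Mir219a-2. The endothelial Mir126a had 9390 CPM in replicate 2 and 16741 CPM in replicate 1. Erythroid loci (2 of 2 detected) had 564 and 952 CPM in replicates 2 and 1, of which Mir451a gave 510 and 908 CPM. Microglial and leukocyte loci (3 of 4 detected) summed to 1233 CPM in replicate 2 and 691 in replicate 1, but without Mir150 to 165 and 173 CPM. Choroid plexus loci (1 of 2 detected) had 899 and 447 CPM, nearly all of it Mir204. Their part in the Mir370 difference was not tested. In a tissue sample, fewer cells of a type and less RNA per cell cannot be told apart.

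Loci with the most similar levels were sought by the distance in log2(CPM + 1) over both libraries, which are only 2 points. The nearest to Mir341 were Mir1983 (distance 0.092), Mir598 (0.11) and Mir485 of the Mirg group (0.15). Those nearest to Mir1188 were Mir496a of the Mirg group (0.15), Gm23450 (0.16) and Mir130b (0.17). Mir370 had no close match: Mir128-2 (0.80), Mir26b (0.97) and Mir92b (1.19) came nearest. All of these were higher in replicate 2, Mir128-2 with 4923 CPM there and 2224 CPM in replicate 1. That direction follows in part from choosing loci by closeness to Mir370 in these same libraries.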

How the data were processed

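Small RNA reads from 2 libraries of 1 group were analysed. The authors deposited read counts (whole numbers) for each microRNA gene, on mm10 with GENCODE M21, per the file lists that accompany them; how reads were trimmed, aligned and counted is not given in the sources used here. The 3 value columns have no names; from the values, column 3 holds the RNA strand. Totals exclude the 4 rows without a gene: in replicates 2 and 1 unmapped reads were 22.8% and 18.1%, reads mapping to several places 37.9% and 40.6%, and reads on no locus 6.03% and 5.93%. All 2202 identifiers matched GENCODE M21. TMM came from edgeR 4.0.16 on loci with at least 10 reads in each library, size factors from DESeq2 1.42.0, tests from SciPy 1.17.1 (threshold 0.05), folding from RNAfold 2.7.2. edgeR's quasi-likelihood test cannot be fitted to 1 library against 1. Ratios are replicate 2 over replicate 1. The test was checked on simulated counts that varied by counting error alone. That check therefore does not cover other variation between libraries. Named loci were the members, flanking loci, the top and median locus of each group, seed relatives and the 3 nearest profiles of each member; Gm23912, Mir379, Mir544, Mir668, Mir107, Mir219a-2 and Lonp1 were named after their values were seen. The members and lists were chosen with earlier results of these data known. Alternatives were the column without strand, other scalings, minimums of 50 reads or none, 5 added reads, and each replicate left out.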

Additional observations from a re-analysis of the deposited data

How the results depend on the processing

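The Mir370 ratio kept its direction and its call under all 6 alternatives run, between 2.08 and 2.26. Mir341 reversed to 0.055 with library totals alone and kept its direction and call otherwise. With no minimum, Mir3544, with 1 read in replicate 2 and 0 in replicate 1, stood above Mir370 by ratio in the region. Mir1188 passed the test with DESeq2 size factors (0.18), library totals (0.35), at least 50 reads (0.19) and no minimum (0.20), so its call depends on these choices. Scaled to a total of 1000000 over all reads of a library, a larger denominator, Mir341 stood at 818 and Mir1188 at 76.3. In the column without regard to strand, whose total is smaller, Mir341 stood at 2557 CPM. Leaving out each replicate gave 2337 to 2428 CPM for Mir341, 196 to 250 CPM for Mir1188, 1616 to 7718 CPM for Mir370, 0.415 to 1.04% of gene-assigned reads and 1.86 to 4.42% of Dlk1-Dio3 reads. With Mir370 left out, an alternative chosen after seeing the data, these shares averaged 0.262% and 1.16%. No paired analysis was possible because there is 1 group. Depth does not limit the Mir370 difference, but 2 libraries cannot show how often such a difference occurs.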

Other observations

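In the Mirg group, ratios of replicate 2 over replicate 1 differed between close neighbours as well. Mir668 had a log2 ratio of 1.23 and Mir485, the next detected locus downstream, 0.02. Mir382 and Mir134, just upstream, had −0.50 and −0.12. From Mir299a to Mir494 all 6 detected loci were higher in replicate 2, between 0.63 and 1.11, while Mir379 and Mir411 before them were lower, at −0.48 and −0.41. These loci were named after their values were seen. Across the 389 detected loci, the log2 ratio had a Spearman's rho of 0.16 with the G and C content of the locus. The rho was higher without the low loci, at 0.23 over the 210 loci with a mean of at least 100 CPM. It was 0.26 over the 79 loci with a mean between 1000 and 10000 CPM, the range of Mir370 and Mir341. These values are a description over loci of the same libraries. The 141 loci within 5 percentage points of Mir370 in G and C content had a median log2 ratio of 0.04, and 1 of them exceeded Mir370.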
